A study of Mus musculus with 20 samples.

Results

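The bZIP motifs are the DNA sequence models, or matrices, of transcription factors that bind DNA through a basic region and pair through a leucine zipper. They were taken by name from a table of footprint scores (every name beginning with FOS, JUN, ATF, CREB, CREM, BATF, BACH, MAF, NFE2, CEBP, DBP, HLF, NFIL3 or XBP1, and TEF alone), which gave 108 of 1205 matrices. A factor can have several matrices, so the 108 stand for 57 of 779 names. By the first partner in the name they fall into AP-1 (41 matrices: FOS, JUN and BATF), CREB/ATF (22, with XBP1), MAF (25, with NFE2 and BACH), CEBP (13) and the PAR group (7: DBP, HLF, TEF and NFIL3). The bZIP matrices JDP2, NRL and Ddit3::Cebpa fall outside the name rule and were not counted.

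The scores come from ATAC-seq, which reads open chromatin by where a transposase cuts, of cells of the Nkx2.1 lineage. WT mice carried Nkx2.1-Cre and Tcf4 cKO mice carried Tcf4f/f; Nkx2.1-Cre, and a Cre-dependent reporter marked the lineage in both. The Cre is driven in ventral telencephalic progenitors, and each library was made from 50000 GFP+ cells sorted from neocortices, with 2 libraries per genotype. The methods give postnatal day 7 or 8 for the dissection, and the footprint scores are labelled day 7. Nothing in the sources used here says that the 2 libraries came from separate animals, so their spread may be technical. The Tcf4 peaks used further below came from another mouse line. In it a Flag and HA tag on Tcf4 is switched on by Nkx2.1-Cre.

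AP-1 dimers of FOS and JUN proteins are built within minutes of growth factor or activity signals and open enhancers in many cell types. Many CREB and ATF proteins bind the cAMP response element (CRE), mostly close to genes, and some, such as CREB1, are switched on by phosphorylation. MAF and BACH proteins carry oxidative stress and differentiation programmes, and CEBP factors are known for their part in myeloid cells.

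The footprint table holds 1 value per genotype because the alignments of its libraries were merged. No test of a footprint score was therefore possible, and each score below is the authors' value. The score rises with the depth of the protected dip and with the accessibility around a site, and a site is called bound when its score passes a cut set by the software. In these bulk samples, fewer cells with an open site and less opening per cell cannot be told apart.

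The letters that separate the bZIP classes are shown by regions open in 1 genotype alone, that is with peaks in its 2 libraries and no peak in the other genotype. For each core the region with the highest reads in that genotype gives 30 bases of the RefSeq GRCm38 genome with the core in capitals.
AP-1 (TGANTCA), WT alone, chr5:139347427-139347456, plus strand, intergenic, at -1814 bp from a start site of Cox19: ggtgtcttttaTGACTCAgcaagcagccct
CRE (TGACGTCA), WT alone, chr10:77507365-77507394, plus strand, in an intron, nearest gene Fam207a: agggatgtctgTGACGTCAgcaggcctgtg
XBP1 and ATF6 element (TGACGTGG), WT alone, chr6:31807741-31807770, plus strand, in an intron: gcacagctgcaTGACGTGGgtaatggcaag
MAF core (TGCTGAC), WT alone, chr8:13198023-13198052, minus strand, in an intron, nearest gene Grtp1: ctatcttctgagTGCTGACtgaaattaagt
AP-1, Tcf4 cKO alone, chr2:78006040-78006069, plus strand, intergenic: acttgttggaaTGAATCActgtccattatt
NF-E2 and BACH (TGANTCAGC), Tcf4 cKO alone, chr10:119615464-119615493, minus strand, in an intron: tgcctgaccgcTGAGTCAGCtcactttgca
MAF core, Tcf4 cKO alone, chr1:89587540-89587569, plus strand, in an intron: ttgagcgagtcTGCTGACtgtcagacactc
The AP-1 core has 7 letters with a free base in the centre, and the CRE has 1 more base between the same outer arms. The NF-E2 and BACH core is the AP-1 core with GC added, so each such site is counted as an AP-1 site too, as the Cox19 site shows. These are the letters alone. They do not show which protein was bound.

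Footprint scores of bZIP motifs were lower in Tcf4 cKO than in WT for 107 of 108 matrices, against 53.4% of all 1205 motifs. The one exception was MAF MA1520.1, with a score of 0.267 in WT and 0.268 in Tcf4 cKO. The changes were small: the median bZIP matrix had a log2 ratio of -0.050, a change of -3.39%, while the median of all motifs was -0.0028. In the lowest 10% of all motifs by this ratio, where the background is 10.0% by construction, there were 43 of the 108 bZIP matrices, or 39.8%. In the highest 10%, again 10.0% of all motifs, there was 0 of 108. Matrices of one class hit overlapping sites, so these counts are not counts of independent events.

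**Figure D1:**
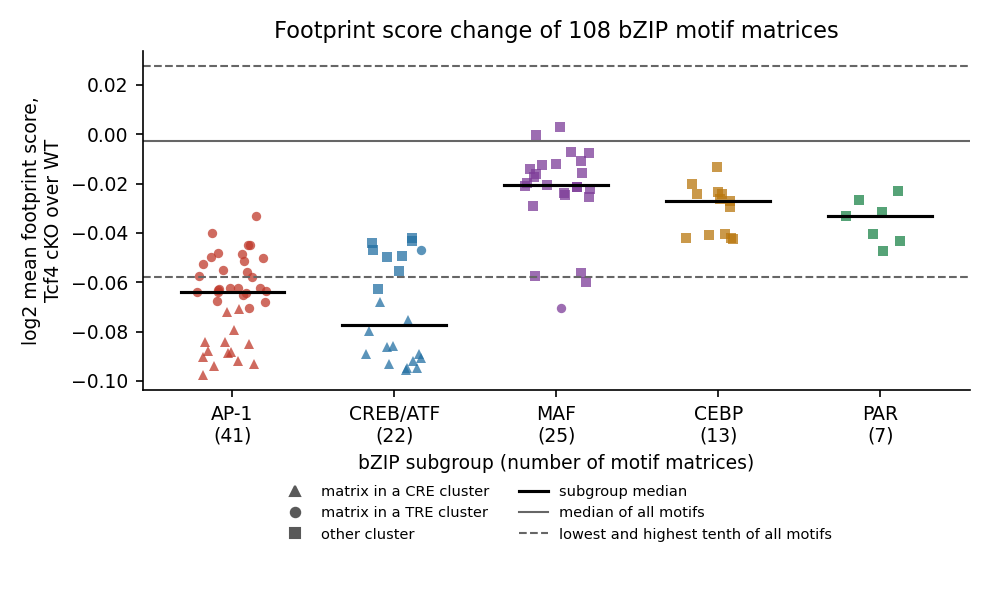
Log2 ratio of the mean footprint score, Tcf4 cKO over WT, for each of the 108 bZIP matrices (1 point each) by subgroup. Triangles are matrices in CRE clusters, circles those in clusters of the 7-letter AP-1 core (TRE clusters) and squares all others; black bars are subgroup medians, the grey line is the median of all 1205 motifs and dashed lines bound their lowest and highest 10%. The AP-1 and CREB/ATF matrices reach lowest, to -0.098, and CEBP and PAR matrices stay above the lower dashed line.

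The AP-1 and CREB/ATF matrices stood lowest. The median log2 ratio was -0.064 for the 41 AP-1 matrices and -0.077 for the 22 CREB/ATF matrices, or changes of -4.34% and -5.23%. It was -0.021 for MAF, -0.027 for CEBP and -0.033 for the PAR group. The lowest 10% of all motifs held 27 of 41 AP-1, 14 of 22 CREB/ATF, 2 of 25 MAF, 0 of 13 CEBP and 0 of 7 PAR matrices. The plot of score change by subgroup shows that the AP-1 range, from -0.098 to -0.033, overlapped the ranges of all the other subgroups.

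AP-1 names covered matrices of 2 kinds. The table itself clusters matrices by likeness, and 14 AP-1 matrices sat in the same cluster as CREB1, CREM, ATF2, ATF3 and ATF7 matrices, here called CRE clusters together with the clusters of Crem, CREB1 and Atf3. The other 27 sat in clusters of the 7-letter AP-1 core, called TRE clusters. All 14 of the former and 13 of the 27 latter were in the lowest 10%. Their median log2 ratios were -0.088 and -0.058, and their WT scores had medians of 0.475 and 0.238. All 27 bZIP matrices in CRE clusters, whatever their name, were in the lowest 10%.

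In the CRE clusters, the AP-1 matrix FOSB::JUNB MA1136.1 had the lowest ratio of all bZIP matrices, from 0.501 in WT to 0.468 in Tcf4 cKO, a log2 ratio of -0.098. It was 23rd from the lowest of the 1205 motifs. The others with AP-1 names were FOSL1::JUN, JUNB in 2 versions, FOSL2::JUNB, FOSL2::JUND, FOSB::JUN, FOSL2::JUN, JUN::JUNB, FOSL1::JUND, FOS, FOS::JUN, JUN and JUND, with log2 ratios from -0.094 to -0.071. In the TRE clusters, FOSL1::JUND MA1142.1 was lowest, from 0.235 to 0.224, a log2 ratio of -0.070. The 12 others in the lowest 10% were JUND, JUN::JUNB, FOSL2::JUN, FOS::JUN, FOSL2::JUND, JUNB, FOSB::JUNB, FOSL2::JUNB, FOS::JUNB, FOSL1::JUNB, FOS::JUND and FOSL1::JUN. FOSL2 MA0478.1, which had the most sites of the AP-1 group (16650), changed least, from 0.236 to 0.230 with a log2 ratio of -0.033. FOSL1 MA0477.2 lay just outside the lowest 10%, at -0.058.

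The 14 AP-1 matrices outside the lowest 10% were all in TRE clusters and ran from -0.058 to -0.033. Among them were matrices of FOS, JUN, JUNB and JUND alone and the 4 of BATF proteins, which are AP-1 partners known from lymphocytes. BATF and BATF3 had log2 ratios of -0.049 and -0.045, and BATF::JUN -0.048 and -0.040 in its 2 versions. JDP2, an AP-1 repressor that the name rule leaves out, lay in the lowest 10% with both of its matrices, at -0.091 in a CRE cluster and -0.068 in a TRE cluster.

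Among CREB/ATF matrices, Atf1 MA0604.1 was lowest, with a score of 0.617 in WT and 0.578 in Tcf4 cKO and a log2 ratio of -0.096. CREB3L4 MA1475.1 went from 0.710 to 0.665, at -0.095. The 4 versions of CREB1, the factor that answers cAMP and calcium signals, lay between -0.095 and -0.068 and all in the lowest 10%. CREM in 2 versions, ATF7, Creb5, ATF3 in 2 versions and ATF2 were there too, from -0.093 to -0.080, and so was CREB3, at -0.063. The CREB/ATF matrices outside the lowest 10% were closer to the median of all motifs. XBP1, which carries the unfolded protein response, was at -0.055, ATF6 at -0.047, the second CREB3L4 matrix at -0.049, CREB3L1 at -0.044 and Creb3l2, the highest of the group, at -0.042. ATF4, the amino acid stress factor, had 2 matrices at -0.050 and -0.043, and the third ATF3 matrix, in a TRE cluster, was at -0.047.

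Most MAF matrices stood close to the median of all motifs, apart from some of BACH and NFE2. BACH1 MA1633.2, clustered with FOSL1, was the lowest at -0.071, with scores of 0.254 and 0.242. BACH2 MA1470.1 followed at -0.060, and BACH2 MA1101.2 and NFE2 MA0841.1 lay at -0.058 and -0.056, just outside the lowest 10%. The other 21 matrices ran from -0.029 for MAF::NFE2 to 0.0031 for MAF MA1520.1. MAFG::NFE2L1 MA0089.1, with the most sites of any bZIP matrix (23137), went from 0.244 to 0.242. NFE2L2, the regulator of the antioxidant response, was at -0.021 and -0.014 in its 2 versions.

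The 13 CEBP matrices ran from -0.043 for CEBPB MA0466.1 (0.214 in WT, 0.208 in Tcf4 cKO) to -0.013 for Cebpa MA0102.1. CEBPA MA0102.4, the CEBP matrix with the most sites (13126), was at -0.026. The 7 PAR matrices, of factors with daily rhythms, ran from -0.047 for HLF MA0043.2 to -0.023 for HLF MA0043.3. NFIL3 MA0025.2, with 12657 sites, was at -0.027. All 20 matrices of both groups were lower in Tcf4 cKO and none reached the lowest 10%.

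The number of sites called bound was lower in Tcf4 cKO for 96 of 108 bZIP matrices, against 48.3% of all motifs. It was lower for 41 of 41 AP-1, 21 of 22 CREB/ATF, 21 of 25 MAF, 10 of 13 CEBP and 3 of 7 PAR matrices. The exception among CREB/ATF matrices was Creb3l2, with 1663 bound sites in WT and 1667 in Tcf4 cKO. Summed over the AP-1 matrices, 51999 sites were called bound in WT and 50009 in Tcf4 cKO, of 463919 sites in all. The CREB/ATF sums were 33746 and 32944 of 169756. Sites shared by like matrices are counted once for each matrix in these sums.

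How large a share of a motif's sites was bound differed more between classes than between genotypes. CREB1 MA0018.1 had the highest share, 42.8% of 4776 sites in WT and 41.6% in Tcf4 cKO, and the highest score of the bZIP matrices, 0.787 and 0.751. CEBPA MA0102.4 had the lowest share in WT, 5.47% (5.49% in Tcf4 cKO), and MAFF MA0495.3 the lowest in Tcf4 cKO, 5.30% (5.51% in WT). The median share in WT was 22.5% for AP-1 names in CRE clusters and 8.39% for those in TRE clusters. The medians were 24.5% for CREB/ATF, 8.98% for MAF, 7.81% for CEBP and 7.61% for PAR matrices. On bound sites the TRE matrices changed more than the CRE matrices with AP-1 names: their median log2 ratios of bound sites were -0.068 and -0.044.

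**Figure D2:**
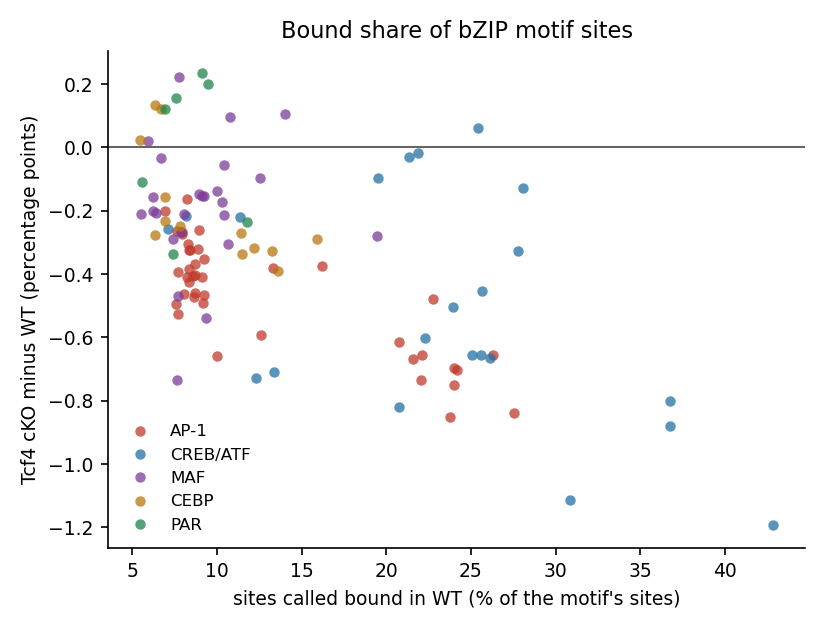
Share of a motif's sites called bound in WT (x axis, %) against the change of that share in Tcf4 cKO (y axis, percentage points), 1 point per bZIP matrix, coloured by subgroup; the grey line marks no change. CREB1 MA0018.1, with the largest share (42.8%), lies lowest, and PAR matrices lie on both sides of the line.

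Motifs with high scores shifted somewhat more as a whole, and the bZIP shift was set beside them. When all motifs were cut into 5 classes of equal size by WT score, the class from 0.401 to 0.899 had a median log2 ratio of -0.014, and its 29 bZIP matrices one of -0.088. Of its 48 motifs in the lowest 10%, 23 were bZIP. In the middle class, from 0.229 to 0.273, the medians were -0.0041 for all 241 motifs and -0.050 for its 37 bZIP matrices. Outside the bZIP group, the clusters with the most matrices in the lowest 10% were of bHLH factors, the family of Tcf4 itself. They held 19 matrices with Myod1 and Tcf12 and 15 with TFE3, MITF and USF1.

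The peak lists give 1 value for each library, and so a spread. The 4 libraries held between 54162 and 72308 peaks, and 29.0% to 35.6% of peaks lay within 1 kb of a transcription start site, with WT at both ends of both ranges. A peak stood at the promoter of 6 or 7 of 7 oligodendrocyte lineage genes and 4 to 6 of 6 interneuron genes in each library, but also of 4 or 5 of 6 astrocyte genes and 3 of 5 endothelial genes, so promoter peaks did not single out the labelled lineage. Peak lists cannot show the deleted Tcf4 exons, so the genotype was not checked here.

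The AP-1 core was found in fewer peaks of Tcf4 cKO. Within 75 bp of the peak summit it stood in 4.93% and 5.11% of peaks in the WT libraries, and in 4.24% and 4.37% in the Tcf4 cKO libraries. The means were 5.02% ± 0.126 and 4.31% ± 0.0932 (SD, n = 2 each), and the groups did not overlap. With 2 libraries against 2, an exact two-sided permutation test cannot go below p = 0.33, which is the value it gave (adjusted p = 0.53 over 8 cores). The Wilson 95% intervals of the libraries, which cover counting error only, ran from 4.75% to 5.27% in WT and from 4.09% to 4.54% in Tcf4 cKO. The direction held among the 20000 strongest peaks of each library, at 3.27% and 3.44% against 2.94% and 3.07%. It held too for peaks over 1 kb from a start site, at 6.18% and 6.08% against 5.10% and 5.30%. Near start sites the shares were 2.66% and 2.73% against 2.45% and 2.50%.

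The AP-1 core was also less concentrated at the summits. Its density within 75 bp of the summit, divided by the density from 200 to 350 bp away, was 1.33 and 1.28 in WT and 1.11 and 1.12 in Tcf4 cKO. The ratio compares positions within the same peaks, and it moved with the set of peaks taken. The exact permutation test gave its smallest p of 0.33, with no overlap of the groups. Among the strongest 20000 peaks it was 1.11 and 1.13 in WT and 0.978 and 0.996 in Tcf4 cKO, where the core was no denser at the summit than beside it.

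Promoter peaks of microglial genes moved with genotype in the same libraries. Of 7 microglial genes, 4 had a promoter peak in each WT library, and 2 and 1 in the Tcf4 cKO libraries. Spi1, the myeloid master regulator, had one in each WT library and in no Tcf4 cKO library. P2ry12 had one in all 4 libraries, Cx3cr1 in 3, and Csf1r and Ptprc in 1 WT library each, while Aif1 and Itgam had none. The libraries were made from sorted GFP+ cells of the Nkx2.1 lineage, a gate meant to leave microglia out. The part of such cells in the AP-1, MAF and CEBP values was not tested.

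The CRE was the core most concentrated at summits. Its density ratio was 4.25 and 4.11 in WT and 3.82 and 3.23 in Tcf4 cKO, without overlap (exact permutation p = 0.33). Of the peaks that held it, 67.6% to 73.6% lay within 1 kb of a start site, against 15.5% to 19.3% of those with an AP-1 core. It stood in 0.890% and 0.730% of WT peaks and in 0.723% and 0.705% of Tcf4 cKO peaks. This difference rested on the first WT library: it was -0.096 percentage points with all libraries and -0.016 without that one. Among the strongest 20000 peaks the libraries of a genotype lay closer, at 1.81% and 1.84% in WT and 1.60% and 1.54% in Tcf4 cKO. Near start sites they were 1.82% and 1.70% against 1.65% and 1.57%, and over 1 kb away 0.376% and 0.333% against 0.283% and 0.278%, with no overlap in either place.

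**Figure D3:**
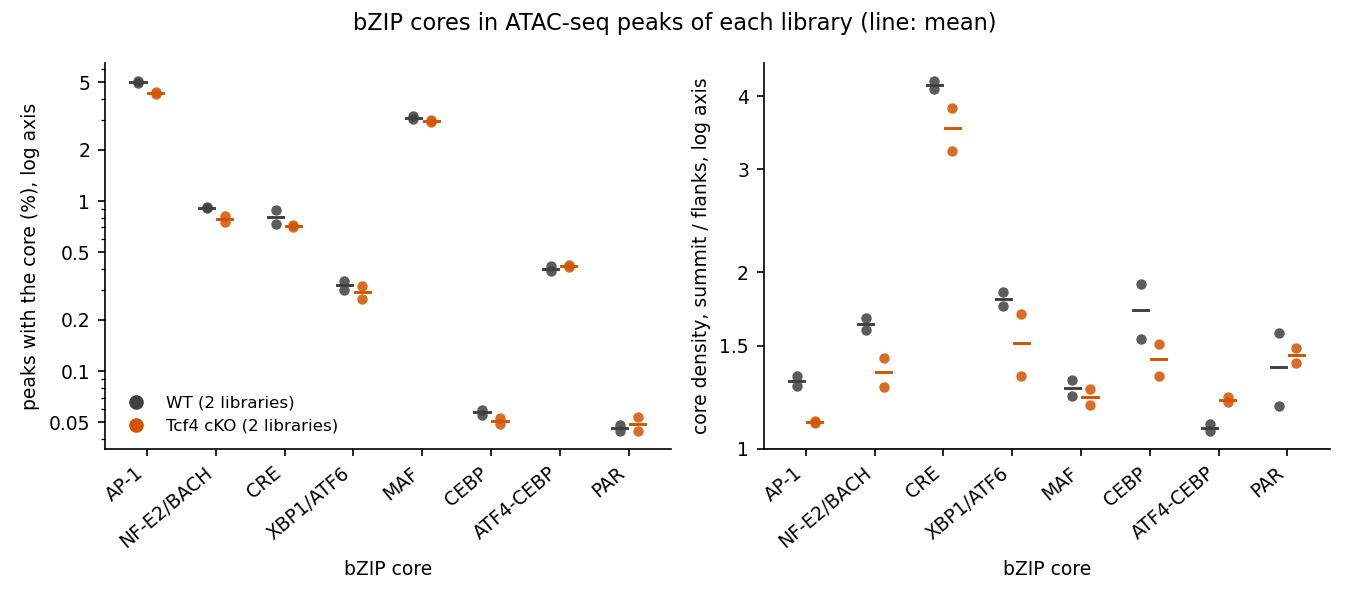
Left, share of ATAC-seq peaks with each bZIP core within 75 bp of the summit (%, log axis); right, core density at the summit divided by that 200 to 350 bp away (ratio, log axis). Each point is 1 library, with WT in grey and Tcf4 cKO in orange, and bars are means of 2 libraries. For the AP-1 core both orange points lie below both grey points in both panels; for the PAR core the groups overlap.

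The other cores gave differences in share that were smaller than that of AP-1 in percentage points, or mixed. The MAF core was in 3.04% and 3.15% of WT peaks and 3.00% and 2.90% of Tcf4 cKO peaks, and its density ratios overlapped (1.23 and 1.31 against 1.27 and 1.19). The NF-E2 and BACH core was in 0.914% and 0.917% of WT peaks and 0.821% and 0.758% of Tcf4 cKO peaks. Its density ratios were 1.67 and 1.60 against 1.43 and 1.28, again without overlap. The mean share of this core in Tcf4 cKO was 0.862 of that in WT, against 0.859 for the AP-1 core. Among the strongest 20000 peaks the direction of the share was not kept, with 0.615% and 0.595% against 0.665% and 0.590%. The XBP1 and ATF6 element was in 0.340% and 0.300% against 0.266% and 0.317%, which overlap. Its density ratios did not overlap, at 1.85 and 1.75 against 1.33 and 1.70. The CEBP core (TTGCGCAA) and the PAR core (TTACGTAA) were in under 0.1% of peaks of each library. On these few sites the CEBP density ratios were 1.54 and 1.91 against 1.33 and 1.51, without overlap. Among the strongest 20000 peaks the density ratios of the XBP1 and ATF6 element and of the CEBP core overlapped. The composite of ATF4 and CEBP (TTGCATCA) averaged 0.401% in WT and 0.413% in Tcf4 cKO, with overlap. Its density ratio was the higher one in Tcf4 cKO, at 1.20 and 1.23 against 1.07 and 1.10 in WT (exact permutation p = 0.33). The strongest 20000 peaks gave the other order, 1.04 and 0.927 against 1.08 and 1.14.

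Regions open in one genotype alone gave a view of single sites. Of 32120 consensus regions, 328 (1.02%) were open in WT alone and 180 in Tcf4 cKO alone. These counts depend on the libraries taken. Without the second WT library, which had the most peaks (72308), 648 were open in Tcf4 cKO alone and 328 in WT alone. Without the first WT library the counts were 216 and 328. Without the first or the second Tcf4 cKO library, 662 or 723 were open in WT alone. The shares that follow use all 4 libraries. An AP-1 core lay within 75 bp of the centre in 22 of the 328, or 6.71% (Wilson 95% interval 4.47% to 9.95%). It lay in 7 of the 180, or 3.89% (1.90% to 7.81%), and in 3.52% of all other regions. The intervals of the first 2 overlap. Regions open in 1 genotype alone were mostly distal, 292 of the 328 and 158 of the 180. Over 1 kb from a start site the shares were 6.85% and 3.80%, against 5.11% of all distal regions, which lies inside the interval of WT alone. A wider window of 150 bp on each side gave 10.1% and 8.89%. The CRE was in 1 region of WT alone, an intronic one within 1 kb of a start site. It was in 0 of the 180, which allows a share of up to 1.67%. The CRE was in 0.645% of other regions and in 0.3304% of all distal regions. The MAF core was in 10 and in 7 regions, or 3.05% and 3.89%, against 2.65% of others. Over 1 kb from a start site its shares were 3.08% and 3.80%, against 3.26% of all distal regions.

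The sites printed above show the size of such changes in the deposited log2 mean reads. The AP-1 site near Cox19 went from 7.09 in WT to 6.16 in Tcf4 cKO, and the CRE in the intron by Fam207a from 6.01 to 3.75. The XBP1 and ATF6 element went from 6.12 to 4.69 and the MAF core by Grtp1 from 6.62 to 5.34. In the other direction, the site of the NF-E2 and BACH core went from 4.17 to 5.63 and the MAF core on chromosome 1 from 5.40 to 6.84. The AP-1 site on chromosome 2 went from 3.56 to 7.79. It was the only one of the 180 regions within 500 kb of Cwc22, a gene whose copy number is known to vary between mouse strains, and the part of such variation was not tested.

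Accessibility itself was lower at distal regions that held an AP-1 core or a CRE. The median difference in log2 mean reads, Tcf4 cKO minus WT, was -0.095 over all regions. Over 1 kb from a start site it was -0.167 for the 866 regions with an AP-1 core and -0.060 for those without, and the quartiles with the core ran from -0.526 to 0.186. Log2 mean reads were lower by over 0.5 in 26.0% of these AP-1 regions and in 20.0% of distal regions without the core, against 12.6% of all consensus regions. They were higher by over 0.5 in 12.7% and 13.7%, against 8.38% of all regions. For the 56 distal regions with a CRE the median was -0.314 against -0.066, and 32.1% were lower by over 0.5, while 5.36%, or 3 regions, were higher by that much.

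Near start sites the medians lay closer together. The 277 promoter regions with an AP-1 core had a median of -0.110 and those without one of -0.108. Their shares lower by over 0.5 still differed, at 12.3% with the core and 3.79% without. The shares higher by over 0.5 differed too, at 5.42% and 2.39%, so the spread was wider both ways. Median log2 mean reads in WT were 7.45 with the core and 8.20 without. Promoter regions with a MAF core were also lower by over 0.5 more often, in 8.64% against 3.85%. For the CRE the medians were -0.136 over 149 regions and -0.107, and 3.36% and 3.95% were lower by over 0.5. Promoter regions with a CRE were lower in Tcf4 cKO in 82.6% of cases, and promoters without one in 72.1%. Distal regions with a MAF core, 553 in number, had a median of -0.089 against -0.066. The median of the 37 distal regions with the XBP1 and ATF6 element went the other way, at 0.064, with quartiles from -0.521 to 0.306. Of these 37 regions, 10 were lower by over 0.5 and 5 were higher by that much, so the larger changes did not follow the median. The 87 distal regions with the composite of ATF4 and CEBP had a median of -0.132 against -0.066, and the 149 with the NF-E2 and BACH core one of -0.124. No test was possible on these values, since the file gives 1 mean per genotype.

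**Figure D4:**
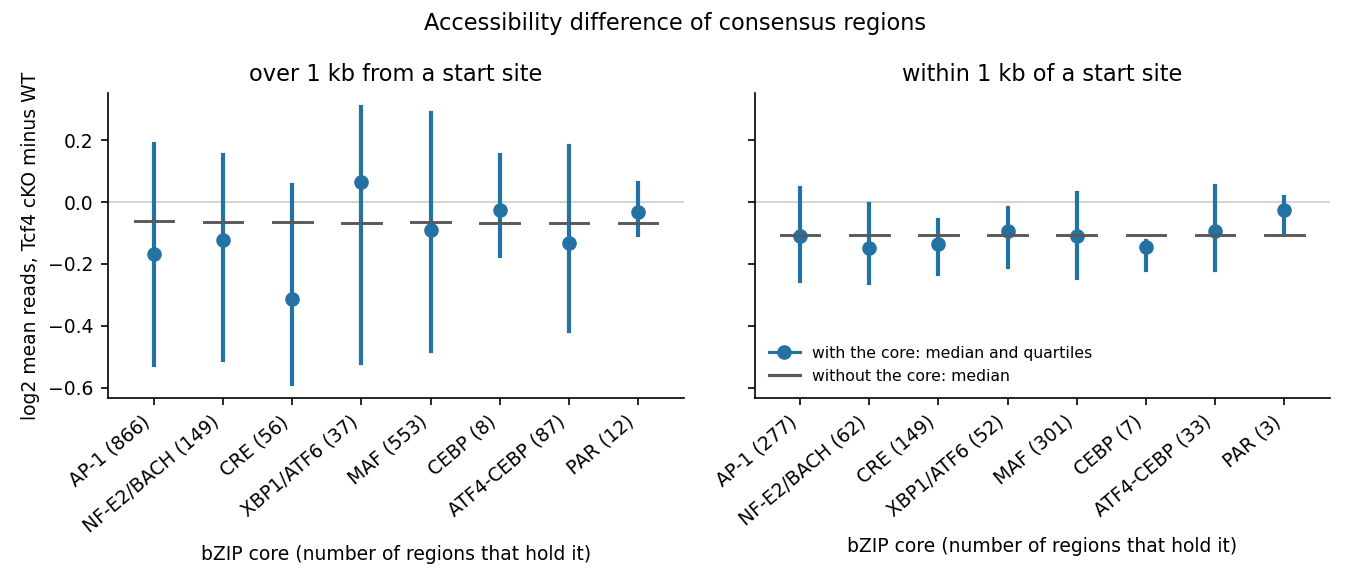
Difference in deposited log2 mean reads, Tcf4 cKO minus WT, at consensus regions that hold each bZIP core (points, medians; bars, quartiles over regions; number of regions in brackets), beside the median of regions without it (grey bars). Left, regions over 1 kb from a transcription start site; right, regions within 1 kb. The AP-1 and CRE points lie below their grey bars on the left, at -0.167 and -0.314, and closer to them on the right.

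Distal AP-1 regions carried histone marks and Tcf4 about as often as other distal regions. A peak of H3K27ac, the mark of active elements, overlapped 42.1% and 35.9% of them in the WT libraries and 36.5% and 28.9% in the Tcf4 cKO libraries. Distal regions without the core gave 44.3% and 36.7%, and 37.9% and 30.5%. A Tcf4 peak, from Cut&Tag of a Flag tag on Tcf4, overlapped 47.0% and 24.9% of AP-1 regions in its 2 libraries and 47.1% and 25.9% of the rest. H3K4me1, a mark of enhancers, overlapped 66.5% and 70.8% of AP-1 regions in WT and 76.9% and 72.6% in Tcf4 cKO, close to the other distal regions (64.0%, 70.8%, 76.5% and 73.3%). Distal CRE regions had Tcf4 peaks in 46.4% and 25.0% of cases.

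Promoter regions differed by core. H3K27ac in WT covered 90.6% and 83.2% of those with a CRE, 63.2% and 62.1% of those with an AP-1 core, and 83.7% and 78.4% of promoter regions without an AP-1 core. In Tcf4 cKO these shares were 87.2% and 79.2%, 63.2% and 57.4%, and 79.8% and 73.1%. H3K27me3, the Polycomb mark, covered 18.1% and 22.1% of CRE promoter regions in WT and 14.8% and 13.4% in Tcf4 cKO. Promoter regions without a CRE gave 23.4% and 28.3% in WT and 24.9% and 24.1% in Tcf4 cKO.

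The genes of the factors, a list that also holds bZIP genes without a matrix here such as Atf5 and Ddit3, were mostly open in both genotypes. Of 52 bZIP genes, 48 had a promoter peak in all 4 libraries and 4 in none, and no promoter was open in some libraries only. The 4 were Batf, a lymphoid AP-1 partner, Cebpe, a granulocyte factor, Creb3l3, a liver factor, and Creb3l4. The same count over all genes was not made. Of 100 consensus regions nearest to these genes, 10 were lower in Tcf4 cKO by over 0.5 and 2 were higher, no more than the 12.6% and 8.38% of all regions.

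Those regions lay mostly away from promoters. A region at -37074 bp from Bach1, a repressor of antioxidant genes, was the only one with peaks in WT alone, and its log2 mean reads went from 5.86 to 4.21. A second Bach1 region, 29950 bp downstream, went from 7.65 to 6.83. Around Fos, the immediate early gene, a region 57359 bp downstream went from 6.14 to 4.82 and one at -5440 bp from 7.80 to 7.17. Creb3l2 had 2 intronic regions, at 7.83 and 8.48 in WT and 6.64 and 7.75 in Tcf4 cKO. Nfil3 also had 2, at 7.08 and 8.85 in WT and 6.26 and 8.29 in Tcf4 cKO. Single regions of Atf6 (7.67 to 6.81) and Bach2 (7.80 to 7.15) were lower as well. The 2 higher regions were an upstream region of Jdp2 (6.28 to 7.06) and a second promoter of Nfe2l1 (6.67 to 7.24).

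Promoter regions of AP-1 genes were all lower in Tcf4 cKO, by small amounts. This was so for 8 of 8 regions, against 73.5% of all 13909 regions that the authors annotated as promoters, with a median of -0.215 against -0.110. Fos went from 9.89 to 9.42 in log2 mean reads, Junb from 9.37 to 8.99, Fosb from 8.67 to 8.39 and Jdp2 from 9.43 to 9.16. Jun, at 10.8 and 10.6, was close to the median of all promoters. The 5 CEBP promoter regions were lower as well, with Cebpb at 8.82 and 8.48, and 11 of 13 CREB/ATF and 9 of 13 MAF regions were lower. The PAR genes differed, with 2 of 5 regions lower.

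**Figure D5:**
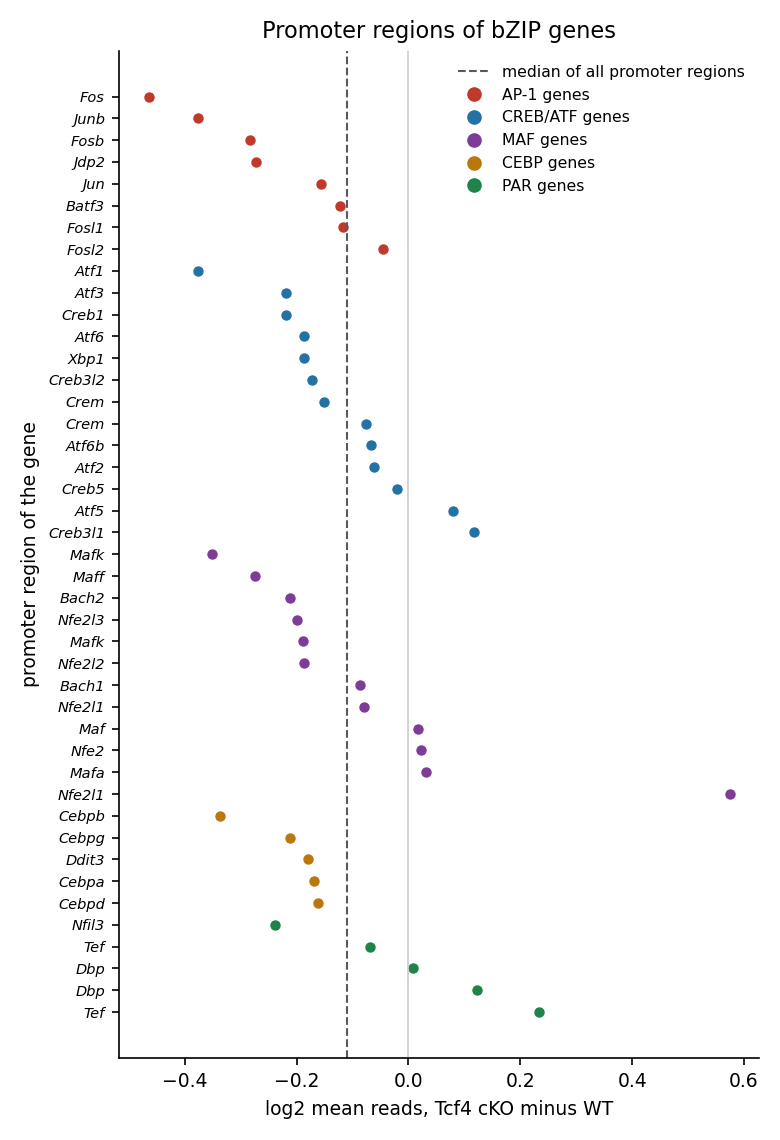
Difference in deposited log2 mean reads, Tcf4 cKO minus WT, of promoter regions of bZIP genes (1 point per region, a gene may have more than 1, and 1 gene is left out), coloured by subgroup and sorted within it. The dashed line is the median of all 13909 promoter regions, -0.110. Fos lies lowest, at -0.465, and a second promoter of Nfe2l1 highest, at 0.574.

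H3K27ac peaks were called at fewer of these promoters in Tcf4 cKO, as at promoters in general. Both WT libraries had one at 39 of the 52 genes and both Tcf4 cKO libraries at 33. Over all promoter regions the shares were 85.3% and 80.3% in WT and 81.6% and 75.2% in Tcf4 cKO. Atf3, a stress-induced gene, Mafa and Nfe2l3 had the peak in each WT library and in no Tcf4 cKO library. All of these also carried H3K27me3 in all 4 libraries of that mark. How many promoters of all genes had H3K27ac peaks in WT libraries only was not counted. H3K27me3 stood at 19 promoters in both WT libraries and at 18 in both Tcf4 cKO libraries, and Tcf4 peaks of both libraries at 38. Over all promoter regions, H3K27me3 covered 24.2% and 29.3% in WT and 25.4% and 24.7% in Tcf4 cKO, and Tcf4 80.6% and 56.1%. These shares, like those of H3K27ac, are of single libraries over regions. The gene counts need a peak in both libraries, near any start site of the gene, so the counts and shares are not like measures.

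Some bZIP genes hold bZIP cores in their own promoters. Whether these sites take part in the values above was not tested. The promoter sequences of RefSeq (GRCm38), from 250 bases before to 50 after a start, covered 41 of the 52 genes. A CRE on either strand was in 1.79% of all 32851 promoters and in those of Creb5, Hlf and Maff. An AP-1 core was in 7.81% of all and in those of Creb5, Creb3l3 and Ddit3. The CRE sites are given because the CRE matrices changed most in score, though not in bound sites.
Creb5, CRE 45 bases before the start, chr6:53287247-53287276, plus strand: ggaatcccacgTGACGTCAccgggggggtg
Hlf, CRE 9 bases before the start, chr11:90390908-90390937, minus strand: ggtgcgggcccTGACGTCActcttgtcagg
Maff, CRE 29 bases before the start, chr15:79347480-79347509, plus strand: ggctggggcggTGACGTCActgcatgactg
Capitals mark the CRE, which reads the same on both strands. A match is not a bound site, and no match says only that the letters are not in this window.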

How the data were processed

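The members and lists were chosen with earlier results of these data known. ATAC-seq reads were trimmed (Trim Galore), aligned to mm10 (Bowtie2) and called per library by the authors with MACS2, and peaks reproducible by IDR at 0.05 made the consensus regions. Footprint scores and the numbers of sites and bound sites were made by the authors with TOBIAS BINDetect on merged alignments, with JASPAR matrices. The deposited consensus table gives log2 mean normalised reads per genotype (DiffBind). Deposited peak files give the fold enrichment and the −log10 p-value and q-value of each peak. Columns of the authors' own comparisons (fold change, p-value, FDR, footprint change) were not used, and 0 other columns of samples were found.

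Here the log2 ratio of scores was taken per matrix and set against its median over all 1205 matrices; called meant the lowest or highest 10%. Cores were searched on both strands within 75 bp of each summit or region centre in the RefSeq GRCm38 genome, and library shares were compared by an exact permutation test (SciPy 1.17.1). Start sites came from GENCODE, and a promoter peak lies within 1 kb of one. No read depth per library is given by the peak files, so the number of peaks stands for it. Matrices were named where in the lowest or highest 10%, the highest or lowest of a subgroup, the extremes of bound share, or those with the most sites, and genes where a region differed by over 0.5, was open in 1 genotype alone, or no promoter peak was found. Sequences on chromosome 18 were not considered for printing. The core search, tails and overlaps were tested on simulated data. The CRE and TRE clusters, density ratio, promoter splits, Cwc22 distance and promoter medians were chosen after seeing the data, as were the members just outside the lowest 10% and the single promoters and genes that are named beside counts. One gene of the list is counted in the totals but not reported here by itself.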

Additional observations from a re-analysis of the deposited data

How the results depend on the processing

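Of 124 values under 21 alternative settings, 97 were counted as kept, 15 moved and 12 changed sign. Some of those kept could not have changed, so the count is no measure of stability. The block by replicate number reuses the main difference, and leaving out motifs with under 1000 sites removed none. Moving matrices between AP-1 and CREB/ATF leaves the MAF, CEBP and PAR medians as they were. For core shares of peaks and for differences of mean scores, kept means the same direction only. For the other values it means within 1.5 times or within counting error. Among the strongest 20000 peaks the AP-1 share difference thus counted as kept, at -0.3525 against -0.708 percentage points. So did the CRE difference, at -0.255 against -0.096. The 5 subgroup medians of the footprint ratio (-0.061, -0.075, -0.018, -0.024 and -0.030 after centring on the median of all motifs) kept direction and size, also with AP-1 names in CRE clusters moved to CREB/ATF. The 43 bZIP matrices in the lowest 10% became 21 in the lowest 5%, 74 in the lowest 20% and 21 by bound share. With sites summed, the change of bound share was -0.125 for CEBP (median -0.269) and -0.0187 for PAR (median 0.121). Among the strongest 20000 peaks the differences in core share, in percentage points, were 0.0225 for NF-E2 and BACH, 0.0075 for CEBP, -0.015 for ATF4 with CEBP and -0.0075 for PAR. Near start sites they were 0.0101 for CEBP and -0.0043 for ATF4 with CEBP, and farther away -0.00063 for PAR. With 150 bp on each side they were -0.0406 for ATF4 with CEBP and -0.00021 for PAR. The same window gave an AP-1 core in 10.1% of regions of WT alone and 8.89% of those of Tcf4 cKO alone, and a MAF core in 5.79% and 8.33%. No distal region of WT alone held a CRE (0%). The difference in accessibility between regions with and without a core was -0.056 for AP-1, -0.063 for CRE and 0.0033 for MAF. It was -0.031 for AP-1 and 0.00018 for MAF with 150 bp, -0.107, -0.248 and -0.023 for AP-1, CRE and MAF at distal regions, and -0.0018, -0.028 and -0.0031 near start sites. The causes were not tested.

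Without 1 library at a time, the difference in core share ran from -0.797 to -0.619 percentage points for AP-1, -0.158 to -0.0947 for NF-E2 and BACH, -0.176 to -0.016 for CRE, -0.0539 to -0.0024 for XBP1 and ATF6, -0.195 to -0.0931 for MAF, -0.0088 to -0.0045 for CEBP, -3.4e-05 to 0.0257 for ATF4 with CEBP and -0.0017 to 0.0074 for PAR. The AP-1 share ran from 6.50% to 6.80% for WT alone and from 3.89% to 4.63% for Tcf4 cKO alone. The CRE share of WT alone ran from 0.302% to 0.692%, and the MAF shares from 3.05% to 3.47% and 3.40% to 3.89%. With the replicate number as a block, the AP-1 difference stayed -0.708 percentage points and the exact sign-flip p was 0.5, the smallest that 2 pairs allow. The deviations of libraries with the same number had r = -0.0014 over 32120 regions. Consensus regions were kept for peaks reproducible within a genotype, so a region rarely deviates in both genotypes. That value therefore cannot show whether libraries with the same number share a batch. Footprint scores and reads come as 1 value per genotype and have no replicate error, and 2 libraries per genotype cannot give a p under 0.33 by exact permutation. Leaving out motifs with under 1000 sites removed none.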
